A study of Mus musculus with 30 samples.

Results

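Gene expression in the mouse digit tip was compared between 6 h and 3 h after amputation. The comparison takes every library labelled 3h or 6h, which is 6 of the 30 mice of a time series with 9 time points, and every gene with enough counts, which is 13793 of 20321. The mice were adult male C57Bl/6 animals of 9 to 10 weeks. At most 33% of the distal phalanx (P3, the last bone) of digit 3 of the hindlimb was cut off, as checked by micro-computed tomography, and the wound was left without sutures. All 6 mice were amputated, all 6 samples came from the right foot, and each time holds 3 mice. The 3 mice at 3 h carry the title date 14 July 2015. At 6 h, mice 1 and 3 carry 15 July 2015 and mouse 2 carries 19 November 2015. The labels do not say what the date marks, and the date and the hour after amputation cannot be told apart. Mice are numbered in the order of their records, with no pairing between the times.

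The wound response begins with immediate early genes, which are switched on without new protein synthesis and code for transcription factors such as the AP-1 proteins of the Fos, Jun and Maf families. Inhibitors of NF-kB and MAP kinase signalling are induced beside them and shut down the signal that switched them on. The genes of mitosis are expressed mainly in dividing cells and are controlled together through shared promoter elements, and fibrillar collagens are the main product of fibroblasts and osteoblasts in the dermis and bone of the digit. The samples were bulk tissue, so fewer cells of a type and less RNA per cell cannot be told apart.

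Each library held between 3167596 and 10661646 counts, and the November mouse was the deepest. Pearson correlations of log2(CPM + 1), where CPM is a gene's count scaled to the size of the library, over the genes tested were 0.933 to 0.953 among the 3 h mice, 0.959 to 0.969 among the 6 h mice and 0.932 to 0.963 between the times, so the range between the times overlapped the range within each. 3 h mouse 1 was the lowest of the 3 h mice in 20 of 27 immediate early genes and in 13 of 15 NF-kB target genes. It was also the lowest in 15 of 18 ribosome biogenesis genes, but in 5 of 11 inflammatory cytokines, with the highest value in 3. Its mean correlation with the other 3 h mice was 0.948, against 0.943 for mouse 2 and 0.938 for mouse 3. Il6, a wound cytokine, had 1.22, 21.2 and 22.4 CPM in the 3 h mice. The November mouse was the lowest of the 6 h mice in 13 of the 15 NF-kB target genes and the highest in 11 of 18 ribosome biogenesis genes. The keratinocyte markers (Krt5, Krt14, Krt1 and Krt10 among them) summed to between 48779 and 100401 CPM at 3 h and between 54673 and 74975 CPM at 6 h, and fibroblast and osteoblast markers were present in all 6 mice. Of 10 marrow progenitor markers in the file, Elane, Mpo and Prtn3 had 0 counts in all 6, and all 10 summed to between 1.45 and 8.49 CPM at 3 h and between 0 and 1.37 CPM at 6 h. Only 3 of them had enough counts to be tested, and none was called.

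At 6 h, 11 genes were higher and 11 lower than at 3 h (edgeR quasi-likelihood test, Benjamini-Hochberg adjusted p under 0.05 over the 13793 genes), which is 0.0798% of the genes tested in each direction. At an unadjusted p under 0.05, 776 genes were higher and 721 lower, or 5.63% and 5.23%. All 3 mice at 6 h lay above all 3 at 3 h in 9.27% of the genes, and below them in 7.81%. The median log2 fold change over all genes was 0.00. The largest rises were those of Aurka, a spindle kinase, and Trp53inp1, a stress-response gene. The largest falls were those of Fosb, an AP-1 factor, and Col11a1, a collagen chain. None of the 22 genes had an overlap between the times, as the plot of called genes shows. With 3 mice against 3, an exact two-sided permutation test of a single gene cannot go below p = 0.1, and all 22 genes reached that value.

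**Figure D1:**
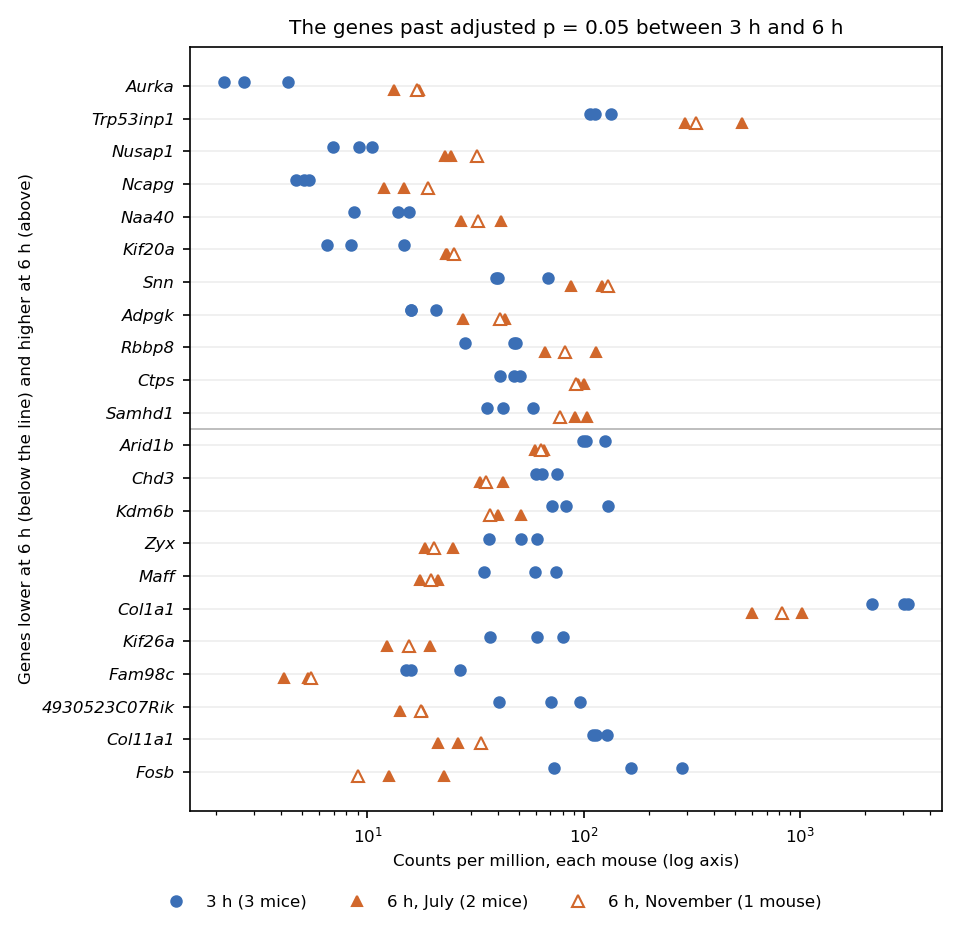
Level of each of the 22 genes past adjusted p = 0.05 in each mouse, in CPM on a log axis. Circles are the 3 mice at 3 h, filled triangles the 2 July mice at 6 h and open triangles the November mouse at 6 h. In every gene the 3 circles and the 3 triangles stand clear of each other, and the November mouse lies with the other 6 h mice.

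Most of these calls were lost when 1 mouse was left out, except when it was 3 h mouse 1. Such a fit also has fewer mice at 1 of the times, and the cause of the losses was not tested. Without 3 h mouse 1, 58 genes were higher and 32 lower, and 18 of the 22 genes stayed called. With 3 h mouse 2 left out 4 of the 22 stayed, and with 3 h mouse 3 left out 6 did. Without 6 h mouse 1, 10 stayed, without the November mouse 4, and without 6 h mouse 3, 6. Fosb and Trp53inp1 stayed called whichever mouse was left out, Aurka and Col11a1 in 5 of the 6 such fits, and Col1a1 in none. A fit of only the 6 mice, which estimates the spread without the other times, kept Col11a1 (adjusted p = 0.0104) and lost the other 21 calls, with Fosb and Trp53inp1 at an adjusted p of 0.0629 and Aurka at 0.107. All 22 genes kept their direction in every fit.

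Immediate early genes lay mostly lower at 6 h. Of 27 on the list, all tested, 2 fell past the adjusted threshold (Fosb and Maff), against 0.0798% of all genes tested. At an unadjusted p under 0.05, 11 were lower and 0 higher, against 5.23% and 5.63% of all genes. The median log2 fold change was -0.59 against 0.00 over all genes. Fosb (ENSMUSG00000003545, chromosome 7, 19302696 to 19310051, minus strand), which codes for an AP-1 subunit of the Fos family, had 73.0, 284 and 165 CPM in the mice at 3 h and 12.5, 9.02 and 22.5 CPM at 6 h. The highest mouse at 6 h was below the lowest at 3 h, and the level was 12.0-fold lower (log2 fold change -3.59, standard error 0.55, adjusted p = 0.00278). Left-out mice moved its adjusted p to at most 0.0420, and the fit of only the 6 mice to 0.0629. Fosb had been at 296 ± 120.1 CPM (SD, n = 3) at 0 h and was at 6.23 ± 1.17 CPM (SD, n = 3) at 12 h. Of the 3 mice at 0 h, which were taken right after the cut, 2 carry a November date. Of the 27 listed genes, 17 already had a 3 h mean below their 0 h mean, and 20 had a 6 h mean below it. In 11 of the 27 the 6 h mean was nearer to the 0 h mean than the 3 h mean was. These levels have no test.

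Maff, a small Maf protein that pairs with other leucine zipper factors, had 34.7, 59.2 and 74.5 CPM at 3 h and 21.2, 19.7 and 17.4 CPM at 6 h (log2 fold change -1.52, standard error 0.29, adjusted p = 0.0230). Its 6 h mice were close together, below the 0 h level of 29.4 ± 5.88 CPM (SD, n = 3), while the 3 h mice were spread over a wider range above it. Zyx codes for zyxin, a protein of focal adhesions and actin fibres, and was not on the list. It had 36.5, 60.6 and 51.3 CPM at 3 h and 24.7, 20.4 and 18.4 CPM at 6 h (log2 fold change -1.22, standard error 0.22, adjusted p = 0.0177). In both genes 3 h mouse 1 was the lowest of its group, and both lost the call when the November mouse, 6 h mouse 3, 3 h mouse 2 or 3 h mouse 3 was left out, with an adjusted p of up to 0.232 for Maff and 0.149 for Zyx. Maff also lost it without 6 h mouse 1.

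Promoter windows of RefSeq on GRCm38.p6, from 250 bases before to 50 after the gene's start, were searched on both strands for sites of AP-1 and CREB proteins. The motifs were TGACGTCA (the CRE) and TGANTCA, which is the TRE taken with any base in the middle. Neither motif contains the other. Of the 11 genes that fell, 8 had a window. The CRE was found in Maff, 29 bases before 1 of its 3 starts, against 1.79% of all 32851 windows. TGANTCA was found in Zyx as TGAGTCA, 121 bases before the start, and 7.81% of all windows held it with any middle base. Fosb had neither in its window. The windows of Maff and Zyx are shown with the site in capitals, because they are those among the fallen genes that hold one.
Maff promoter, chr15:79347270-79347569, plus strand: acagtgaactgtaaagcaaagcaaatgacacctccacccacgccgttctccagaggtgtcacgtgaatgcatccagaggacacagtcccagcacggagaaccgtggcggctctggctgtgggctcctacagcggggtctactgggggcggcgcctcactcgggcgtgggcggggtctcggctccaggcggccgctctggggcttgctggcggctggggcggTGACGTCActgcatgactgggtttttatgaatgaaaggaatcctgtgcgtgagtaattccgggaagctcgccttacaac
Zyx promoter, chr6:42349578-42349877, plus strand: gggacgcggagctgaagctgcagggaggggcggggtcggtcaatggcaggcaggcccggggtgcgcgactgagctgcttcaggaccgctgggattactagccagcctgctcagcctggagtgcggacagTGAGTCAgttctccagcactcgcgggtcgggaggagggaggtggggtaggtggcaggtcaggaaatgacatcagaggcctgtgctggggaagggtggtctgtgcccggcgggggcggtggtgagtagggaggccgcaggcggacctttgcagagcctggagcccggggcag

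The other members did not pass the adjusted threshold. Fos itself had 93.4, 197 and 124 CPM at 3 h and 49.0, 32.0 and 103 CPM at 6 h (adjusted p = 0.336), and the times overlapped, with 6 h mouse 3 above 3 h mouse 1. Its 0 h level was 597 ± 166 CPM (SD, n = 3), above every mouse at both times. Myc, a growth factor-induced transcription factor, had 88.3, 170.0 and 137 CPM at 3 h and 55.4, 77.6 and 68.5 CPM at 6 h, with no overlap (adjusted p = 0.118). Atf3, a stress-induced partner of AP-1, had 8.97, 54.3 and 23.1 CPM and 6.18, 2.03 and 5.29 CPM (adjusted p = 0.248).

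The list did not move as 1 block. Egr1, a zinc finger factor driven by serum response elements, had 82.6, 131 and 52.8 CPM at 3 h and 99.7, 40.7 and 129 CPM at 6 h, with a log2 fold change of 0.01. Jun and Junb had log2 fold changes of -0.52 and -0.36 (adjusted p = 0.515 and 0.683). The orphan receptors Nr4a1, Nr4a2 and Nr4a3 lay at -1.34, -1.37 and -1.55, and in all 3 of them mouse 2 was the highest at 3 h and mouse 1 the lowest. The heat map of immediate early genes shows mouse 1 below mice 2 and 3 at 3 h in most of these genes. With 3 h mouse 1 left out, 13 members were lower at an unadjusted p under 0.05 and the median was -0.64. Without 3 h mouse 2 there were 4, with a median of -0.28, and without the November mouse 5, with a median of -0.63.

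**Figure D2:**
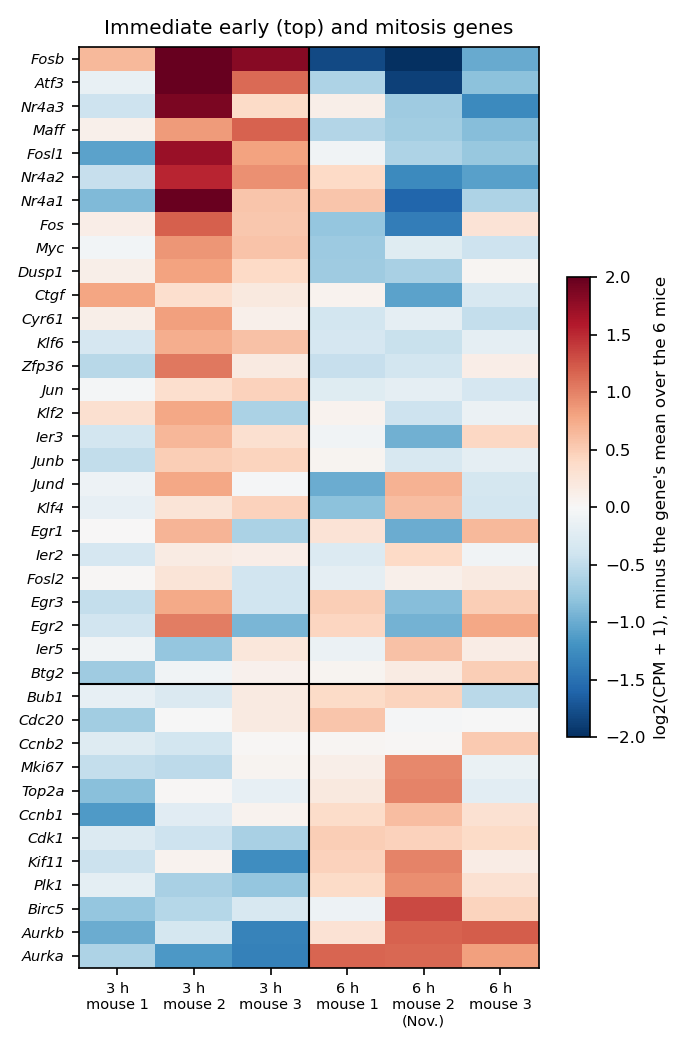
Each mouse's log2(CPM + 1) minus the gene's mean over the 6 mice, for the 27 immediate early genes (above the line) and the 12 mitosis genes (below), each block sorted by log2 fold change. Red is above and blue below the gene's mean. Immediate early genes are red mostly in mice 2 and 3 at 3 h, and mitosis genes are mostly blue in the 3 h mice and mostly red in the 6 h mice, with the November mouse the highest at 6 h in 7 of 12.

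Genes that restrain the same signals had no call in the fit of all mice. Of 14 MAP kinase phosphatase and Sprouty feedback genes, 4 were lower and 0 higher at an unadjusted p under 0.05, with a median of -0.26. The shares over all genes were 5.23% and 5.63%. Leaving out 3 h mouse 2, 1 was lower and the median was -0.0073, without 3 h mouse 1, 4 were lower and the median was -0.37, and without the November mouse, 1 was lower and the median was -0.20. Dusp6, which removes the activating phosphates of ERK, had 56.7, 130.5 and 104 CPM at 3 h and 60.4, 53.1 and 63.2 CPM at 6 h, and Dusp1, another such phosphatase, 70.9, 116 and 86.7 and 39.6, 41.5 and 67.5 CPM. Dusp6 overlapped, since 6 h mice 1 and 3 lay above 3 h mouse 1, and Dusp1 did not, though 6 h mouse 3 came close to 3 h mouse 1. Dusp1 is also on the immediate early list. Of 15 NF-kB feedback and target genes, 5 were lower and 0 higher at an unadjusted p under 0.05, against the same shares of all genes, with a median of -0.43. Nfkbia, the inhibitor that holds NF-kB in the cytoplasm, had 84.2, 161 and 188 CPM at 3 h and 90.7, 106 and 62.8 CPM at 6 h (adjusted p = 0.324). It was the 1 NF-kB gene that was called lower with the date group as a covariate (adjusted p = 0.0287). The date group is early (July and August) or late (November to January), not the date itself. Tnfaip3, a ubiquitin-editing brake on the same pathway, had 5.50, 29.7 and 33.3 and 9.28, 7.50 and 11.9 CPM (adjusted p = 0.433). Socs3, the inhibitor of Il6-type receptors, had 39.3, 146 and 123 and 71.6, 32.9 and 37.2 CPM (adjusted p = 0.405). In all 3 of them mouse 1 at 3 h lay within or below the range of the 6 h mice, and mice 2 and 3 above it. Without the November mouse, 1 of the 15 was lower and 1 higher at an unadjusted p under 0.05, and the median was -0.17. Leaving out 3 h mouse 1, 5 were lower and the median was -0.67. Leaving out 3 h mouse 2 or 3 h mouse 3, 0 were lower, without 6 h mouse 1, 3 were, and without 6 h mouse 3, 2 were.

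2 collagen genes fell, and most others lay lower. Col1a1, the alpha 1 chain of type I collagen (ENSMUSG00000001506, chromosome 11, 94936224 to 94953042, plus strand), had 3007, 3146 and 2151 CPM at 3 h and 1018, 828 and 601 CPM at 6 h, 3.39-fold lower (log2 fold change -1.76, standard error 0.38, adjusted p = 0.0452). Col11a1, a chain of the type XI collagen that nucleates fibrils (ENSMUSG00000027966, chromosome 3, 114030540 to 114220718, plus strand), had 110.5, 114 and 128 CPM at 3 h and 26.2, 33.5 and 21.1 CPM at 6 h, 4.34-fold lower (log2 fold change -2.12, standard error 0.36, adjusted p = 0.00768). In both genes the 3 h mice were close to each other and well above all 6 h mice. Col1a1 lost its call when any 1 of the 6 mice was left out (adjusted p up to 0.266, log2 fold change from -1.94 to -1.57 over all other fits). Col11a1 lost it without 6 h mouse 3 alone (adjusted p = 0.0853).

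The partner chains lay in the same direction without passing. Col1a2, the other chain of type I collagen, had 4534, 4895 and 3752 CPM at 3 h and 1906, 1288 and 1101 CPM at 6 h (log2 fold change -1.62, standard error 0.40, adjusted p = 0.107). Col11a2, a second type XI chain, had 92.3, 83.1 and 121 and 32.1, 39.1 and 19.2 CPM (log2 fold change -1.70, standard error 0.40, adjusted p = 0.0801). Both had no overlap between the times. Col3a1, of the type III collagen of skin and vessels, overlapped in its lowest 3 h and highest 6 h mouse, with 2919, 2314 and 1463 and 1794, 1001 and 999.9 CPM (adjusted p = 0.381). The 38 collagen chain genes tested of 44 in the file are a set made by symbol after their values were seen. Of the 38, 2 fell, against 0.0798% of all genes tested. At an unadjusted p under 0.05, 15 were lower and 0 higher, against 5.23% and 5.63% of all genes. In 14 all 6 h mice lay below all 3 h mice and in 0 the reverse, against 7.81% and 9.27% of all genes. The median log2 fold change was -0.63. With 1 mouse left out the median was between -0.79 and -0.49. The 15 lower genes became 10 without 3 h mouse 1, 9 without the November mouse and 7 without 6 h mouse 3. The summed level of the 44 was between 12531 and 16350 CPM at 3 h and between 6083 and 9916 CPM at 6 h. Both sums count all reads of these genes, and the 2 ranges did not overlap. A large part of both sums came from Col1a1, Col1a2 and Col3a1, so they say little about the other chains.

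**Figure D3:**
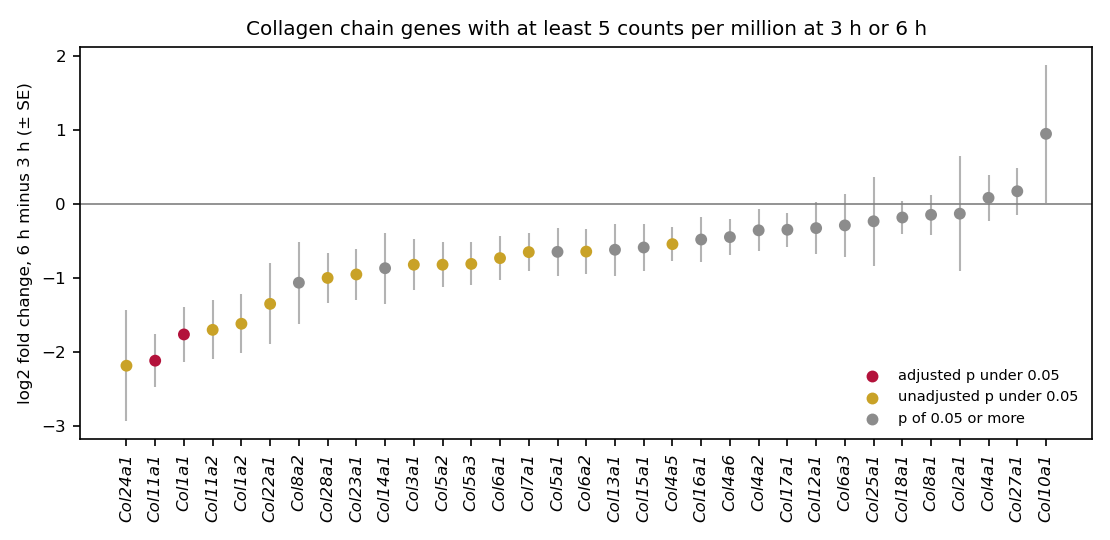
Log2 fold change of 6 h over 3 h with its standard error for the 33 collagen chain genes with a mean of at least 5 CPM at 3 h or 6 h, ordered by fold change, coloured by the p-value of the edgeR test. Of the 33, 30 lie below 0, with the type I and type XI chains near the left end.

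The levels at the neighbouring times place this step. Col1a1 had 1839.9 ± 914 CPM at 0 h, 2768 ± 539 CPM at 3 h, 816 ± 209 CPM at 6 h and 1506 ± 458 CPM at 12 h (SD, n = 3 each). Of the 38 chains, 13 had a 3 h mean below their 0 h mean, 31 had a 6 h mean below it and 19 a 12 h mean below it. These levels are a description with no test.

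The other markers of the cells that make collagen did not all follow. Of 9 fibroblast markers, 1 fell (Col1a1) and 3, all of them collagens, were lower at an unadjusted p under 0.05, against 5.23% of all genes. Pdgfra, the PDGF receptor of fibroblasts, had 86.4, 75.3 and 61.1 CPM at 3 h and 123, 78.6 and 91.2 CPM at 6 h (log2 fold change 0.39, adjusted p = 0.619), and Dcn, the proteoglycan decorin, had 679, 593 and 378 and 525, 265 and 400.1 CPM (log2 fold change -0.47, adjusted p = 0.712). Summed over the 9 markers the range was 8103 to 11691 CPM at 3 h and 3456 to 5851 CPM at 6 h, and most of both sums was collagen. Of 10 osteoblast and osteocyte markers, 3 were lower and 1 higher at an unadjusted p under 0.05, against 5.23% and 5.63% of all genes, and none passed. Bglap2, an osteocalcin, had 22.4, 41.8 and 46.3 CPM at 3 h and 4.86, 8.11 and 8.03 CPM at 6 h (adjusted p = 0.180). Bglap, its near-identical neighbour with which it may share reads, had 22.2, 13.2 and 10.5 and 4.12, 3.55 and 2.54 CPM (adjusted p = 0.395). Ibsp, bone sialoprotein, had 127, 171 and 91.8 and 69.4, 253 and 55.4 CPM, with the November mouse the highest of the 6. With 3 h mouse 1 or 6 h mouse 3 left out, 1 of the 10 was lower. Runx2, the transcription factor that starts the osteoblast programme, had 3.87, 8.49 and 2.53 CPM at 3 h and 13.0, 9.83 and 12.1 CPM at 6 h (adjusted p = 0.314). The summed osteoblast markers overlapped, at 259 to 402 CPM and 163 to 388 CPM. The part of cell numbers in the collagen result was not tested.

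Mitosis genes lay higher at 6 h. Of 12 on the list, all tested, 1 rose past the adjusted threshold (Aurka), against 0.0798% of all genes tested. At an unadjusted p under 0.05, 9 were higher and 0 lower, against 5.63% and 5.23% of all genes. All 12 lay above 0, as did 6915 of the 13793 genes tested, and the median log2 fold change was 0.88. Aurka (ENSMUSG00000027496, chromosome 2, 172356190 to 172370535, minus strand), the kinase that matures the spindle poles, had 4.28, 2.68 and 2.17 CPM at 3 h and 17.2, 16.9 and 13.3 CPM at 6 h, 5.06-fold higher (log2 fold change 2.34, standard error 0.38, adjusted p = 0.00621). The mice of each time were close together, and no 3 h mouse came near a 6 h mouse. The call was lost without 3 h mouse 2, where the adjusted p was 0.0780. Aurka had been at 13.5 ± 1.34 CPM (SD, n = 3) at 0 h and was at 19.0 ± 4.09 CPM (SD, n = 3) at 12 h, above its 3 h mean of 3.04 ± 1.10 CPM at both times.

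Of the genes outside the list that rose, 3 act in mitosis. Nusap1, which bundles spindle microtubules, had 6.93, 9.16 and 10.5 CPM at 3 h and 22.8, 32.1 and 24.5 CPM at 6 h (log2 fold change 1.59, standard error 0.32, adjusted p = 0.0306). Ncapg, a subunit of the condensin that compacts chromosomes, had 5.10, 5.36 and 4.70 and 14.7, 19.2 and 11.9 CPM (log2 fold change 1.59, standard error 0.30, adjusted p = 0.0219). Kif20a, the kinesin of the dividing cell's midzone, had 8.36, 6.48 and 14.8 and 23.3, 25.2 and 23.1 CPM (log2 fold change 1.30, standard error 0.27, adjusted p = 0.0351). All 3 genes stood without overlap. A set of 72 kinesin, centromere and condensin genes tested was made by symbol after values were seen, and it holds Ncapg and Kif20a. Of these 72, 2 rose and 1 fell, against 0.0798% of all genes in each direction. At an unadjusted p under 0.05, 19 were higher and 3 lower, against 5.63% and 5.23% of all genes, and the median was 0.50. The 0 h means of Nusap1, Ncapg and Kif20a were 28.7 ± 2.89 CPM, 18.4 ± 0.319 CPM and 26.7 ± 0.638 CPM (SD, n = 3). Of the bases in Kif20a's exons 29.3% also lie in exons of Cdc23 on the other strand, and 13.4% of Ncapg's lie in exons of Lcorl, so some of their reads could come from those genes, since no source used here states that reads were counted by strand.

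Many promoters of mitosis genes share elements, of which the CHR (TTTGAA) and the CCAAT box (CCAAT) are the best known. Both were searched on both strands of the same windows, and neither contains the other. Of the 11 listed mitosis genes with a window, 8 held the CHR, against 17.89% of all windows, and 10 a CCAAT box, against 37.41%. Among the 11 genes that rose, 8 had a window, and Aurka and Ncapg were those with the CHR. In Aurka the CHR begins at base 33 after the start and the CCAAT boxes 51 and 19 bases before the start, and in Ncapg they begin 30 and 176 bases before it. The CCAAT box was found in Adpgk and Snn as well, and Nusap1 had neither motif. The 2 windows are shown with both motifs in capitals because they are those among the risen genes that hold the CHR and the CCAAT box.
Aurka promoter, chr2:172370521-172370820, minus strand: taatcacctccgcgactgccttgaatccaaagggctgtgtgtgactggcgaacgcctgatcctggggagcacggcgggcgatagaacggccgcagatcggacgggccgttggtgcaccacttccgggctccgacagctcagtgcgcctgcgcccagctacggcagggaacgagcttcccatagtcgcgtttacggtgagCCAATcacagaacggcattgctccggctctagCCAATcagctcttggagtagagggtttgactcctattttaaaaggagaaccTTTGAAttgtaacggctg
Ncapg promoter, chr5:45669675-45669974, plus strand: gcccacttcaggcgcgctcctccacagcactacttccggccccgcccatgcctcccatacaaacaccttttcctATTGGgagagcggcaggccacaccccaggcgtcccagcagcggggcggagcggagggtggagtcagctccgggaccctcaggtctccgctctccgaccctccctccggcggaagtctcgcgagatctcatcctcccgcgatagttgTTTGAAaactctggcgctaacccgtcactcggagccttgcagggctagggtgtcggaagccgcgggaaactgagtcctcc

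Cdk1, the kinase that drives entry into mitosis, had 14.9, 13.4 and 11.2 CPM at 3 h and 25.9, 25.4 and 23.9 CPM at 6 h (log2 fold change 0.92, adjusted p = 0.221). Its cyclin Ccnb1 had 9.58, 19.0 and 23.5 and 29.2, 34.6 and 27.6 CPM (adjusted p = 0.312). Aurkb, the kinase of the chromosomal passenger complex, had 1.63, 3.13 and 1.1 and 5.45, 10.8 and 11.2 CPM (log2 fold change 2.18, adjusted p = 0.0801). These 3 genes had no overlap between the times but did not pass. Mki67, the usual marker of cycling cells, overlapped, with 109.7, 106 and 159 CPM at 3 h and 166, 299 and 139 CPM at 6 h (adjusted p = 0.338). Top2a, the topoisomerase that untangles sister chromosomes, did as well, with 65.4, 119 and 105 and 135, 234 and 101 CPM. In both the November mouse was the highest of all 6, and Ccnb2 had a log2 fold change of 0.44.

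**Figure D4:**
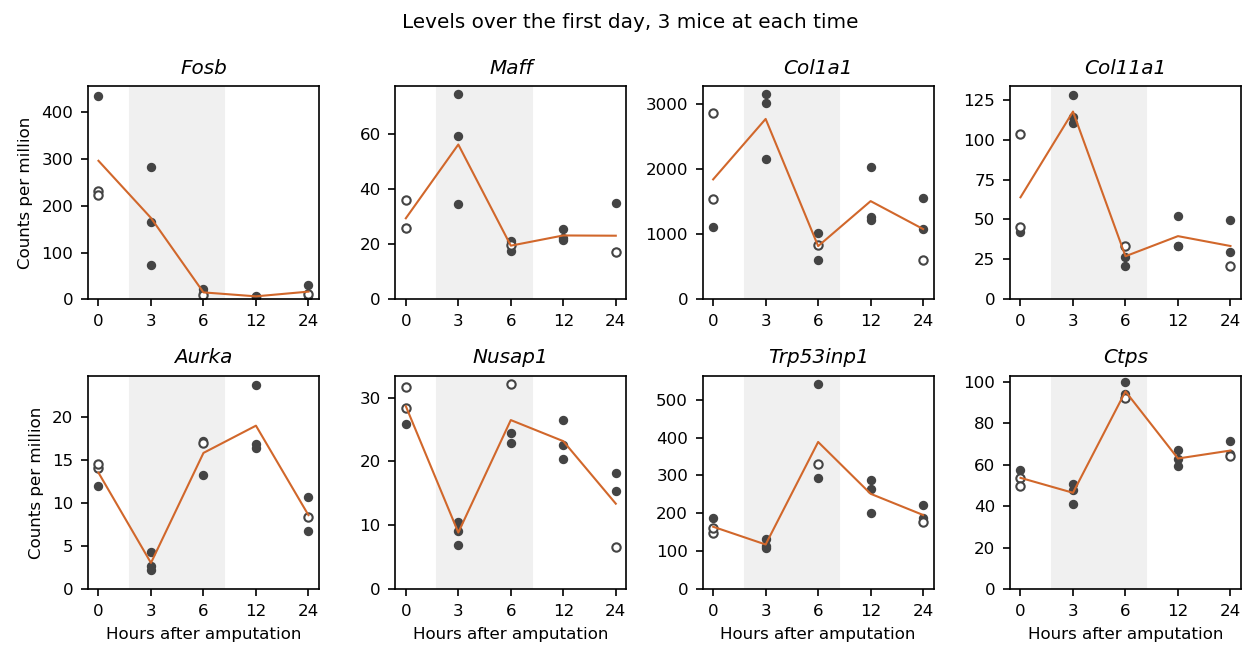
Level of 8 of the genes past the threshold in each mouse at 0, 3, 6, 12 and 24 h, in CPM, with a line through the means of the 3 mice at each time and the times evenly spaced rather than to scale. Open points are mice with a title date of November or later, and the grey band marks the 2 times compared. Fosb steps down from 0 h through 3 h to 6 h, Maff, Col1a1 and Col11a1 peak at 3 h, Aurka and Nusap1 are lowest at 3 h, and Trp53inp1 and Ctps peak at 6 h.

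All 12 listed genes had a 3 h mean below their 0 h mean, and in all 12 the 6 h mean was nearer to it. The kinetochore genes Cenpf and Cenph were next in line without passing, at 20.0, 17.4 and 35.4 against 70.1, 77.2 and 44.4 CPM (adjusted p = 0.0540) and 1.43, 0.447 and 0.361 against 3.68, 5.98 and 5.87 CPM (adjusted p = 0.0548). Genes of G1 to S and replication had no call. Of the 13 on that list, 3 were higher and 1 lower at an unadjusted p under 0.05, and the median was 0.33. The shares over all genes were 5.63% and 5.23%. Without the November mouse 2 were higher and the median was 0.19, and without 6 h mouse 1 the median was 0.51. Mcm6, a subunit of the replicative helicase, had 24.9, 13.4 and 21.3 CPM at 3 h and 34.0, 34.4 and 32.5 CPM at 6 h (adjusted p = 0.281). For the mitosis list, without the November mouse 5 members were higher at an unadjusted p under 0.05 with a median of 0.76, and without 3 h mouse 1 also 5, with a median of 0.82.

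Trp53inp1 (ENSMUSG00000028211, chromosome 4, 11156431 to 11174379, plus strand), a p53-induced gene of the stress and autophagy response, rose from 133, 107 and 113 CPM at 3 h to 293, 331 and 541 CPM at 6 h, 3.30-fold (log2 fold change 1.72, standard error 0.25, adjusted p = 0.00264), and stayed called whichever mouse was left out (adjusted p at most 0.0333) but not in the fit of only the 6 mice (adjusted p = 0.0629). The lowest 6 h mouse had over 2 times the CPM of the highest at 3 h. It was the only call among 11 p53 target genes tested of 12. Of these, 2 were higher and 0 lower at an unadjusted p under 0.05, against 5.63% and 5.23% of all genes, with a median of 0.47. That median was 0.22 without 3 h mouse 3 and 0.31 without 6 h mouse 3. Ccng1, cyclin G1, which p53 also induces, had 86.2, 73.3 and 75.9 CPM at 3 h and 161, 132 and 172 CPM at 6 h with no overlap (adjusted p = 0.10, and 0.0485 with the date group as a covariate). Cdkn1a, the cell cycle inhibitor p21 and the best known target, had 165, 220.1 and 218 and 174, 219.7 and 229 CPM, a log2 fold change of 0.05.

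The other risen genes have varied roles. Ctps, CTP synthase, had 47.7, 50.7 and 40.8 CPM at 3 h and 94.1, 91.9 and 99.8 CPM at 6 h (log2 fold change 1.03, standard error 0.20, adjusted p = 0.0230). Samhd1, which breaks down deoxynucleotides, had 35.9, 42.2 and 58.6 and 104, 77.5 and 91.2 CPM (log2 fold change 1.0, standard error 0.22, adjusted p = 0.0487). Rbbp8 (CtIP), which trims broken DNA ends for repair, had 47.5, 48.5 and 28.2 and 114, 81.8 and 66.4 CPM (log2 fold change 1.1, standard error 0.22, adjusted p = 0.0351). In each gene the mice of a time were within a factor of 2 of each other and no 3 h mouse reached a 6 h mouse. Naa40, an acetyltransferase of histone tails, rose by 1.38 on the log2 scale (adjusted p = 0.0351), Snn by 1.2 (adjusted p = 0.0230) and Adpgk, an ADP-dependent glucokinase, by 1.09 (adjusted p = 0.0219). Mpp1 and 6030458C11Rik followed at adjusted p = 0.0540 and 0.0590, without passing.

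The other fallen genes are given one by one. Kdm6b, a demethylase of the repressive lysine 27 mark on histone H3, had 71.3, 129 and 82.4 CPM at 3 h and 40.3, 36.8 and 51.5 CPM at 6 h (log2 fold change -1.14, standard error 0.24, adjusted p = 0.0368). Chd3, a helicase of the NuRD complex, had 64.0, 59.9 and 75.2 and 42.1, 35.3 and 33.1 CPM (log2 fold change -0.85, standard error 0.18, adjusted p = 0.0452). Arid1b, a subunit of the BAF complex, had 99.7, 102 and 125 and 65.4, 63.3 and 59.7 CPM (log2 fold change -0.79, standard error 0.16, adjusted p = 0.0323). Chd3 and Arid1b had the smallest changes of the 22 genes, with the mice of each time close together. Kif26a, an atypical kinesin, fell from 36.9, 60.8 and 80.2 CPM to 19.4, 15.5 and 12.3 CPM (adjusted p = 0.0391), and 4930523C07Rik from 40.8, 96.3 and 70.8 CPM to 18.0, 17.7 and 14.1 CPM (adjusted p = 0.0279). Fam98c fell from 15.1, 15.9 and 26.7 to 5.30, 5.47 and 4.11 CPM (adjusted p = 0.00768), but 56.5% of its exon bases also lie in exons of Rasgrp4 or 1110035H17Rik on the other strand. Camk2n1, Cdk5rap3, Itpkc and Procr followed at adjusted p = 0.0548, 0.0614, 0.0749 and 0.0797, without passing.

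The inflammatory genes had no call between 3 h and 6 h. Of 11 cytokines tested of 15, 1 was higher and 0 lower at an unadjusted p under 0.05, with a median of 0.69. The shares over all genes were 5.63% and 5.23%. Without 3 h mouse 3, 3 were higher, and without 3 h mouse 2, 6 h mouse 1 or the November mouse, 2 were. The cytokines summed to 87.0 to 118 CPM at 3 h and 137 to 155 CPM at 6 h. Of 12 neutrophil and monocyte chemokines tested of 14, 2 were higher and 0 lower, against the same shares, with a median of 0.62. In 3 of these 12 all 6 h mice lay above all 3 h mice, against 9.27% of all genes. The chemokines summed to 134 to 174 CPM at 3 h and 185 to 213 CPM at 6 h. Neither sum overlapped between the times. Lif, a cytokine of the Il6 family, had 4.08, 12.5 and 15.5 CPM at 3 h and 26.7, 17.5 and 34.1 CPM at 6 h with no overlap (adjusted p = 0.322). Il1b, the macrophage and neutrophil cytokine, had 0.612, 5.36 and 3.61 and 16.8, 5.57 and 9.20 CPM (adjusted p = 0.492). The chemokine Cxcl2, a neutrophil attractant, had 1.43, 2.23 and 0 and 6.63, 11.0 and 10.8 CPM (adjusted p = 0.380). In all 3 genes every 6 h mouse lay above every 3 h mouse, and in Il1b the closest pair of the 2 times differed little. Il6 had 19.0, 5.67 and 14.7 CPM at 6 h, within the range of the 3 h mice given above.

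Neutrophil markers had no call and few counts. S100a8 and S100a9, the calgranulins that make up much of a neutrophil's RNA, had 0.815, 2.68 and 0 and 0, 4.25 and 1.81 CPM at 3 h and 3.68, 0.709 and 2.15 and 6.92, 3.55 and 4.31 CPM at 6 h (adjusted p = 0.850 and 0.698). Csf3r, the G-CSF receptor, had 0.815, 0 and 1.1 CPM at 3 h and 5.89, 1.32 and 4.11 CPM at 6 h with no overlap (adjusted p = 0.255), and those 6 h values rest on 40, 13 and 21 counts. Over the 12 markers tested, 2 were higher and 0 lower at an unadjusted p under 0.05, against 5.63% and 5.23% of all genes. Their median log2 fold change was 0.95, with 8 above 0 and 4 below. With 1 mouse left out the median was between 0.62 and 1.25. In 3 of the 12 all 6 h mice lay above all 3 h mice, against 9.27% of all genes. The 13 markers summed to 54.0 to 98.7 CPM at 3 h and 94.7 to 101 CPM at 6 h.

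3 matrix proteases lay higher at 6 h in every mouse, without a call in the fit of all mice. Mmp3 (stromelysin 1) had 15.1, 35.5 and 47.3 CPM at 3 h and 237, 119.7 and 164 CPM at 6 h, with no overlap (log2 fold change 2.43, standard error 0.71, adjusted p = 0.188). Mmp13, which cleaves fibrillar collagens, had 6.32, 8.94 and 17.0 and 56.0, 26.1 and 44.4 CPM (log2 fold change 2.02, standard error 0.72, adjusted p = 0.284). Both had been at 8.84 ± 1.1 CPM and 4.64 ± 4.08 CPM (SD, n = 3) at 0 h, and Mmp3 was at 467 ± 217 CPM (SD, n = 3) at 12 h. Mmp10, stromelysin 2, had 0 counts in all 3 mice at 3 h and 7, 17 and 4 counts at 6 h. Of the 14 protease and inhibitor genes tested of 15, 3 were higher and 0 lower at an unadjusted p under 0.05. The shares over all genes were 5.63% and 5.23%. Without 3 h mouse 1, 3 of the protease and inhibitor genes were higher and 3 lower. In the mice of the early dates alone, a fit chosen after seeing the data, Mmp3 and Mmp13 were called higher (adjusted p = 0.00202 and 0.00171). The inhibitor Timp1 and the gelatinase Mmp9 overlapped between the times (adjusted p = 0.726 and 0.681).

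Clock genes were split. Of 17, 5 were lower and 0 higher at an unadjusted p under 0.05, against 5.23% and 5.63% of all genes. None passed, and the median was 0.01. Per1, a repressor of the clock that also responds to glucocorticoids, had 85.2, 117 and 121 CPM at 3 h and 41.7, 47.7 and 42.3 CPM at 6 h (adjusted p = 0.157). Cry2, its partner, had 108, 135 and 131 and 57.7, 68.6 and 52.3 CPM (adjusted p = 0.107, and 0.0485 with the date group as a covariate). Neither had an overlap between the times. Nr1d1 and Arntl had log2 fold changes of -0.83 and -0.71 (adjusted p = 0.267 and 0.330). The labels used here give no clock hour of collection, so hours after amputation and hour of the day cannot be told apart.

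Among 8 ligands of the EGF receptor family, growth factors of the skin, 1 was higher and 2 lower at an unadjusted p under 0.05. The shares over all genes were 5.63% and 5.23%, and no ligand passed the adjusted threshold. Nrg1, neuregulin 1, had 1.83, 18.8 and 9.76 CPM at 3 h and 1.62, 1.0 and 3.52 CPM at 6 h, with 3 h mouse 1 within the range of the 6 h mice (adjusted p = 0.192). Hbegf had 28.3, 65.0 and 71.6 and 37.3, 23.6 and 25.6 CPM (adjusted p = 0.377), and Btc, betacellulin, 13.0, 22.1 and 15.5 and 20.8, 42.3 and 48.7 CPM (adjusted p = 0.254). The keratinocyte markers themselves had 0 of 10 at an unadjusted p under 0.05 in either direction, with a median of -0.02. In all, 4 of the 42 gene lists held a called gene, the immediate early, mitosis, p53 target and fibroblast lists, and 38 held none. The collagen set and the set of kinesin, centromere and condensin genes, both made by symbol, are not among the 42.

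**Figure D5:**
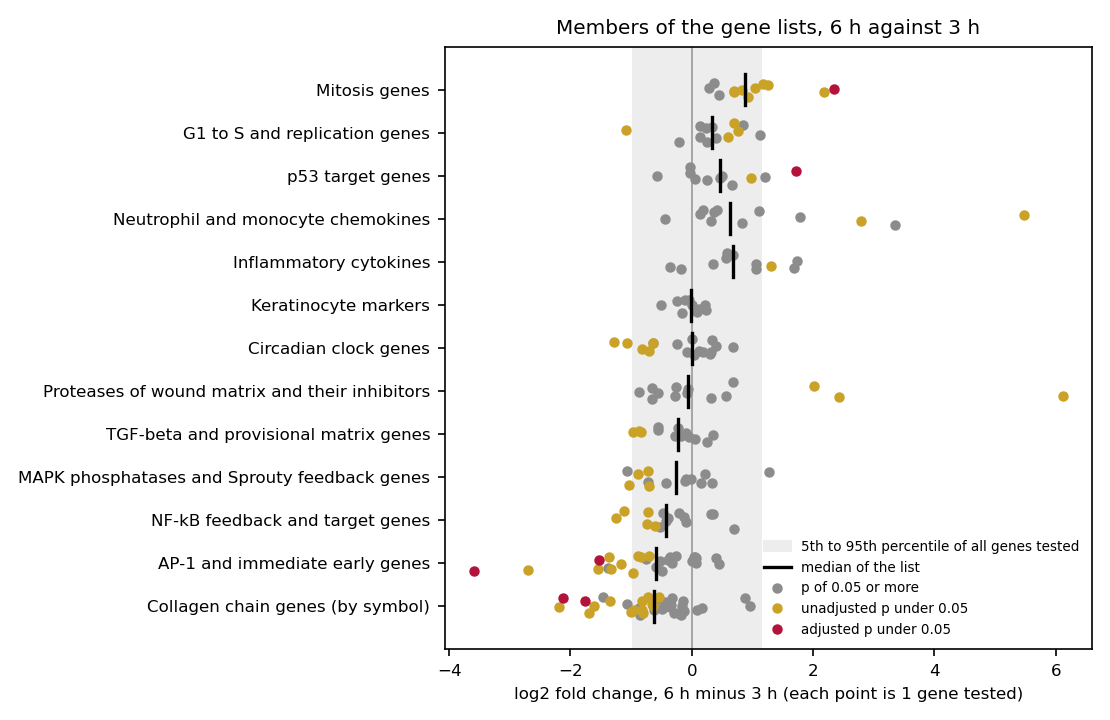
Log2 fold change of 6 h over 3 h for each tested member of 12 gene lists and of the collagen set, with the list's median as a black line and the 5th to 95th percentile of all genes (-0.98 to 1.14) in grey. The points beyond 5 on the right are Mmp10 and Ccl4, which had 0 counts in all 3 h mice, so their fold changes depend on the prior count. The mitosis list lies to the right of 0, and the immediate early, NF-kB and collagen lists lie mostly to the left.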

How the data were processed

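PolyA RNA of each digit was made into libraries with 18 cycles of PCR and sequenced as single-end reads of 65 bp. The authors aligned the reads to Ensembl genes of the mouse using Bowtie (mm10 per the labels), let RSEM 1.2.3 estimate expected counts and TPM for each gene, and deposited both for 30 mice. Expected counts were rounded to whole numbers. Genes were filtered with filterByExpr by time point and scaled by TMM, and 6 h was compared with 3 h by the two-sided quasi-likelihood test of edgeR 4.0.16 in 1 fit of all 30 mice, with Benjamini-Hochberg adjustment. Log2 fold changes are 6 h minus 3 h. Alternatives used DESeq2, limma on log2(TPM + 1) or log2(TPM + 0.1), other filters, other sets of mice, a date group covariate and each mouse left out. The date group was early (July and August) or late (November to January). The scripts were tested on simulated data. A table of the authors' averaged TPM was not used. Gene positions are those of the GRCm38 annotation.

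Genes were named as the 15 with the largest change in each direction past adjusted p = 0.05, with at least 5 CPM and no overlap. Where fewer passed, they were filled up from the lowest p. The called members of each gene list were named as well. The plan to name the first 5 members of each list was not carried through, and some lists are not described. Which other list members to name, the collagen set, the promoter windows to print and the fit of early dates alone were chosen after their values were seen. The comparison and the lists were chosen with earlier results of these data known.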

Additional observations from a re-analysis of the deposited data

How the results depend on the processing

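The 11 higher and 11 lower genes became 63 and 51 with DESeq2's Wald test and 21 and 23 with the date group as a covariate. They became 25 and 18 at an adjusted p under 0.1, and 2 and 3 under 0.01. A fit of only the 6 mice called 0 higher and 1 lower, Col11a1 (712 and 616 at an unadjusted p under 0.05). On log2(TPM + 1) limma called 26 and 3, and on log2(TPM + 0.1) 46 and 4. These scales moved the median of all genes to 0.15 and 0.18, and 89.7% and 92% of their calls were higher, against 50% in the edgeR test. With 1 mouse left out the counts ran from 1 to 58 higher and from 1 to 32 lower. In mice of the early dates alone, a fit chosen after seeing the data, they were 14 and 11, with 9 of the 22 genes kept. DESeq2's size factors kept 21 of the 22, no filter on low counts 19 and a filter of 10 counts in 3 mice 21. The cause of these shifts was not tested. The 22 genes kept their direction in all 15 alternative fits. Of the other named genes, the date group covariate added calls for Aurkb, Nfkbia, Ccng1, Cry2, Cenpf, Mpp1, 6030458C11Rik, Camk2n1, Cdk5rap3 and Itpkc. DESeq2 added these but Nfkbia, and Cenph, Procr, Myc, Col1a2, Col11a2, Bglap2 and Per1. The early mice added Col1a2, Col11a2, Bglap2, Ccng1, Mmp3 and Mmp13.

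Genes near 0 did not keep theirs. The log2 fold change of Egr1 was -0.0039 with DESeq2's size factors and between -0.34 and 0.42 with a mouse left out, and that of Ibsp between -1.04 and 0.34 with a mouse left out. That of Cdkn1a was -0.093 with the date group covariate and between -0.068 and 0.17 with a mouse left out. That of Il6 was 0.50 and 0.61 on the TPM scales, 0.22 in the early mice and between -0.73 and 0.24 with a mouse left out. No paired analysis was possible because the 3 h and 6 h samples came from different mice. Low counts limit the precision of genes such as Csf3r and Mmp10.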

Other observations

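Nail and hair keratins, the structural proteins of the nail plate, lay below 0 in all 9 genes tested, as did 6878 of all 13793 genes. Their median log2 fold change was -0.64, and 0 of them passed the adjusted threshold. At an unadjusted p under 0.05, 1 was lower and 0 higher, against 5.23% and 5.63% of all genes. In 1 of the 9, Krt35, all 6 h mice lay below all 3 h mice, against 7.81% of all genes. Krt35 had 378, 611 and 310.5 CPM at 3 h and 180.4, 299 and 146 CPM at 6 h (edgeR adjusted p = 0.286). The list's sum overlapped widely, from 5869 to 14737 CPM at 3 h and from 3379 to 11466 CPM at 6 h. The 4 wound-induced keratins, which keratinocytes switch on at a wound edge, had a median of 0.17 and 0 at an unadjusted p under 0.05.

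Ribosome biogenesis genes, which build the ribosome in the nucleolus, had a median log2 fold change of 0.29 with 0 of 18 at an unadjusted p under 0.05. Their sum was between 4036 and 5604 CPM at 3 h and between 4077 and 10025 CPM at 6 h. Of 9 endothelial markers 2 were lower and 0 higher at an unadjusted p under 0.05, against 5.23% and 5.63% of all genes. The November mouse was the lowest of the 6 h mice in 7 of the 9. Of 12 glucocorticoid-responsive genes 4 were lower and 0 higher at the same level, against the same shares of all genes, with a median of -0.22. The lowest log2 fold change, -1.29, was the same in this list and the clock list. Lists can share members, so their counts are not independent of each other.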
